A study of Mus musculus with 44 samples.

Results

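The 5 genes described here encode the receptors and ligands of 2 signalling axes that link microglia, the resident macrophages of the brain, to the cells around them. They were chosen by symbol: the receptors Cx3cr1 and Csf1r and the ligands Cx3cl1, Csf1 and Il34. All 5 matched an Ensembl identifier of GENCODE release M21 in each of the 44 count files, among 50714 identifiers shared by all files. The tissue was dorsal cortex with hippocampus, taken at postnatal day 28 or 29. Every mouse carried a heterozygous CX3CR1-CreERT2 allele, a recombinase that tamoxifen activates, and a heterozygous floxed RPL10a-GFP allele, a ribosomal protein tagged with GFP. The series design gives the latter allele as fl/fl. Tamoxifen mice received 100 mg/kg in sunflower seed oil with ethanol on postnatal days 15, 17 and 19. Control mice carried the same alleles and got vehicle per the labels, or no treatment per the series design.

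There were 4 fractions per replicate letter. Input is total RNA of the homogenate, and MG_TRAP is the RNA on ribosomes pulled from it through GFP (translating ribosome affinity purification). SN_input is RNA of the synaptosome fraction, in which pinched-off nerve terminals sediment with the fine processes that touch them. PeMP_TRAP is the pulldown from that fraction. Letters A to C are controls and D to K are tamoxifen mice. By the style of their titles the libraries fall into a first set (A to F, 24 libraries) and a second set (G to K, 20 libraries), and controls exist only in the former. In the second set the last fraction is titled SN_TRAP and was treated as PeMP_TRAP. CX3CR1 drives the recombinase in microglia and also in other macrophages that use this promoter. Widely used lines of this kind place the recombinase in the Cx3cr1 gene itself. The labels do not name the line, and the effect of such an allele on Cx3cr1 reads, which all 8 groups would share, was not tested. The labels do not say whether a letter is 1 mouse or a pool, so the p-values measure the spread between these libraries, which may be technical in part.

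In GENCODE M21 on GRCm38, Cx3cr1 (ENSMUSG00000052336) lies on chromosome 9 at 119901616 to 120069879 on the minus strand. Csf1r (ENSMUSG00000024621) lies on chromosome 18 at 61100598 to 61132149 on the plus strand. Cx3cl1 (ENSMUSG00000031778) and Il34 (ENSMUSG00000031750) are both on chromosome 8, at 94772009 to 94782427 on the plus strand and at 110741829 to 110805924 on the minus strand. Csf1 (ENSMUSG00000014599) lies on chromosome 3 at 107741048 to 107760469 on the minus strand. Counts were made over exons merged per gene, which span 4505 bases for Cx3cr1, 5774 for Csf1r, 3930 for Cx3cl1, 5281 for Csf1 and 1959 for Il34. Of the exons of Csf1r, 873 bases (15.1%) overlap Hmgxb3 on the opposite strand, and 78 exon bases of Cx3cr1 overlap an antisense gene. Whether strand was used in counting is not given in the sources used here, so reads in these stretches cannot be assigned to 1 of the overlapping genes with certainty.

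Fractalkine, the product of Cx3cl1, is made by neurons as a membrane-bound chemokine on a mucin stalk, and proteases release a soluble form. Its receptor CX3CR1 couples to inhibitory G proteins and, in the brain, marks microglia and border macrophages. CSF1R is a receptor tyrosine kinase on which microglia depend for survival. It binds CSF1 and IL-34, ligands of unrelated sequence. In the brain IL-34 comes mainly from neurons of the forebrain, and CSF1 from glia and other cells. The adaptor TYROBP relays part of the signal of CSF1R.

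The promoters of the fractalkine receptor and its ligand are shown because these 2 genes, receptor and ligand of 1 axis, had fitted changes of opposite sign in both pulldown comparisons described next. Each run is the RefSeq promoter window of 300 bases on GRCm38.p6, taken around the start that RefSeq gives the gene, 5′ to 3′ on the gene's own strand. RefSeq windows matched 3 of the 5 members (Cx3cr1, Cx3cl1 and Csf1; not Csf1r and Il34). The Cx3cr1 window is chr9:120068247-120068546 on the minus strand, and the Cx3cl1 window is chr8:94771930-94772229 on the plus strand. By the GENCODE coordinates above, the first lies inside its gene and the second spans the start of its gene. Capitals mark 2 motifs searched on both strands: GAGGAAG, a core bound by PU.1, the macrophage transcription factor encoded by Spi1, and GGGCGG, the GC box bound by Sp1.
Cx3cr1 promoter: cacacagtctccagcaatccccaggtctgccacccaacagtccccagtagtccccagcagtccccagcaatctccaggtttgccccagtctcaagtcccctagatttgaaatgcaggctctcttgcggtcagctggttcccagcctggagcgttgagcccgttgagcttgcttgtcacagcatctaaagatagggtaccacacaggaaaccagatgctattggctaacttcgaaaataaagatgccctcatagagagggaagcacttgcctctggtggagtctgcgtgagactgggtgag
Cx3cl1 promoter: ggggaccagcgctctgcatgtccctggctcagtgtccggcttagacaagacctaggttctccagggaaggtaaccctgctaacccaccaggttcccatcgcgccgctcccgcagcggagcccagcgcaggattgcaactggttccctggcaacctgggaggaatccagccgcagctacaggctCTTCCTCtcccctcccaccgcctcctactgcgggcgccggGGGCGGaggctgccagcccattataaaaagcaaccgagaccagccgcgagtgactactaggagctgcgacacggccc
The Cx3cl1 window held each motif once, the first on the opposite strand (printed as its reverse complement), and had a GC content of 64.7%. The Cx3cr1 window held neither and had a GC content of 54.3%. Among 32851 promoter windows of the same length, 13.6% held GAGGAAG and 35.7% held GGGCGG, so these matches are a description of the windows only.

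The libraries held 740679 to 35427238 assigned reads, and a count of 0 still allows up to 3 counts, or 0.0847 to 4.05 CPM (reads scaled to a common library total) depending on the library. These floors cover counting error alone, because reads copied by PCR were not marked as molecules. The 5 PeMP_TRAP libraries of the second set stood apart. They detected 5372 to 7369 genes, against 9415 to 22449 in the other 39 libraries. Their molecule equivalents were 16305 to 31248, that is, as many reads drawn at random from the average of the other libraries would detect that many genes. In these 5 libraries 1 equivalent therefore stood for 1134 to 1664 reads, against 1.89 to 148 reads in the other 39. The measure takes that average composition for every library, pulldowns included, so it is no count of molecules. In tamoxifen libraries the summed CPM of 9 microglial markers (among them Tmem119, P2ry12 and Sall1) ran from 75.0 to 222.8 in Input and from 7460 to 19076 in MG_TRAP. It ran from 243.8 to 1111 in SN_input and from 4958 to 19525 in PeMP_TRAP, and none of the 9 markers was at 0 throughout a group. In bulk libraries like these, fewer cells of a type and less RNA per cell cannot be told apart.

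Both receptor transcripts rose steeply in the pulldown from whole tissue. Cx3cr1 stood at 4.79, 10.3 and 16.7 CPM in tamoxifen Input (lowest, median and highest of 8 libraries) and at 352.8, 710.9 and 1963 CPM in MG_TRAP. No Input library came near the lowest pulldown. Csf1r ran from 10.2 through a median of 37.9 to 46.7 CPM in Input. In MG_TRAP it ran from 1145 through 2095 to 3740 CPM, again with no overlap. Between tamoxifen fractions, here and below, the share of all genes without overlap was not computed. In edgeR's quasi-likelihood test with Benjamini-Hochberg adjustment, Cx3cr1 rose in MG_TRAP against Input by 6.56 on the log2 scale (SE 0.55, adjusted p = 5.88e-12). Csf1r rose by 6.35 (SE 0.43, adjusted p = 9.46e-15). These were 2 of 5 members called, where 6.82% of 15710 genes tested were called, 4.67% higher and 2.15% lower. With limma voom the Csf1r change was of similar size, but its adjusted p was 0.0715.

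None of the 3 ligand genes passed the test between the same fractions. Cx3cl1 was the member with the most reads in Input, at 359.6, 647.1 and 1459 CPM (lowest, median and highest of 8), and stood at 87.0, 162.6 and 305.4 CPM in MG_TRAP. All 8 pulldowns lay below all 8 Input libraries, and the share of all genes separate in this way was not computed. The fitted change of Cx3cl1 was -1.56 on the log2 scale (SE 0.63, adjusted p = 0.154), and it was called lower with RLE scaling (adjusted p = 0.0291), with DESeq2 (0.0141), with only the compared groups in the fit (0.000298) and without replicate J (0.0341). Il34 had a median of 86.7 CPM in Input (20.5 to 97.8) and of 27.2 CPM in MG_TRAP (6.42 to 45.7), with a fitted change of -1.08 (SE 1.13, adjusted p = 0.756). It was called with only the compared groups in the fit (adjusted p = 0.0199). Csf1 had a median of 11.4 CPM in Input (0.915 to 18.2) and of 7.13 CPM in MG_TRAP (0 to 21.6), where replicates D and K had no read of it. Its fitted change was -0.37 (SE 1.42, adjusted p = 0.955). The ranges of Il34 and Csf1 overlapped between the fractions over all 8 replicates. In the second set alone Il34 was separate, at 22.1 to 45.7 CPM in MG_TRAP against 86.2 to 97.8 CPM in Input. Neuronal markers moved alongside, with a summed CPM of 8200 to 12897 in Input and of 1172 to 6673 in MG_TRAP. Of the 10 markers 2 were called lower, where 2.15% of all genes were. The part of the remaining neuronal RNA in the ligand reads was not tested.

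**Figure D1:**
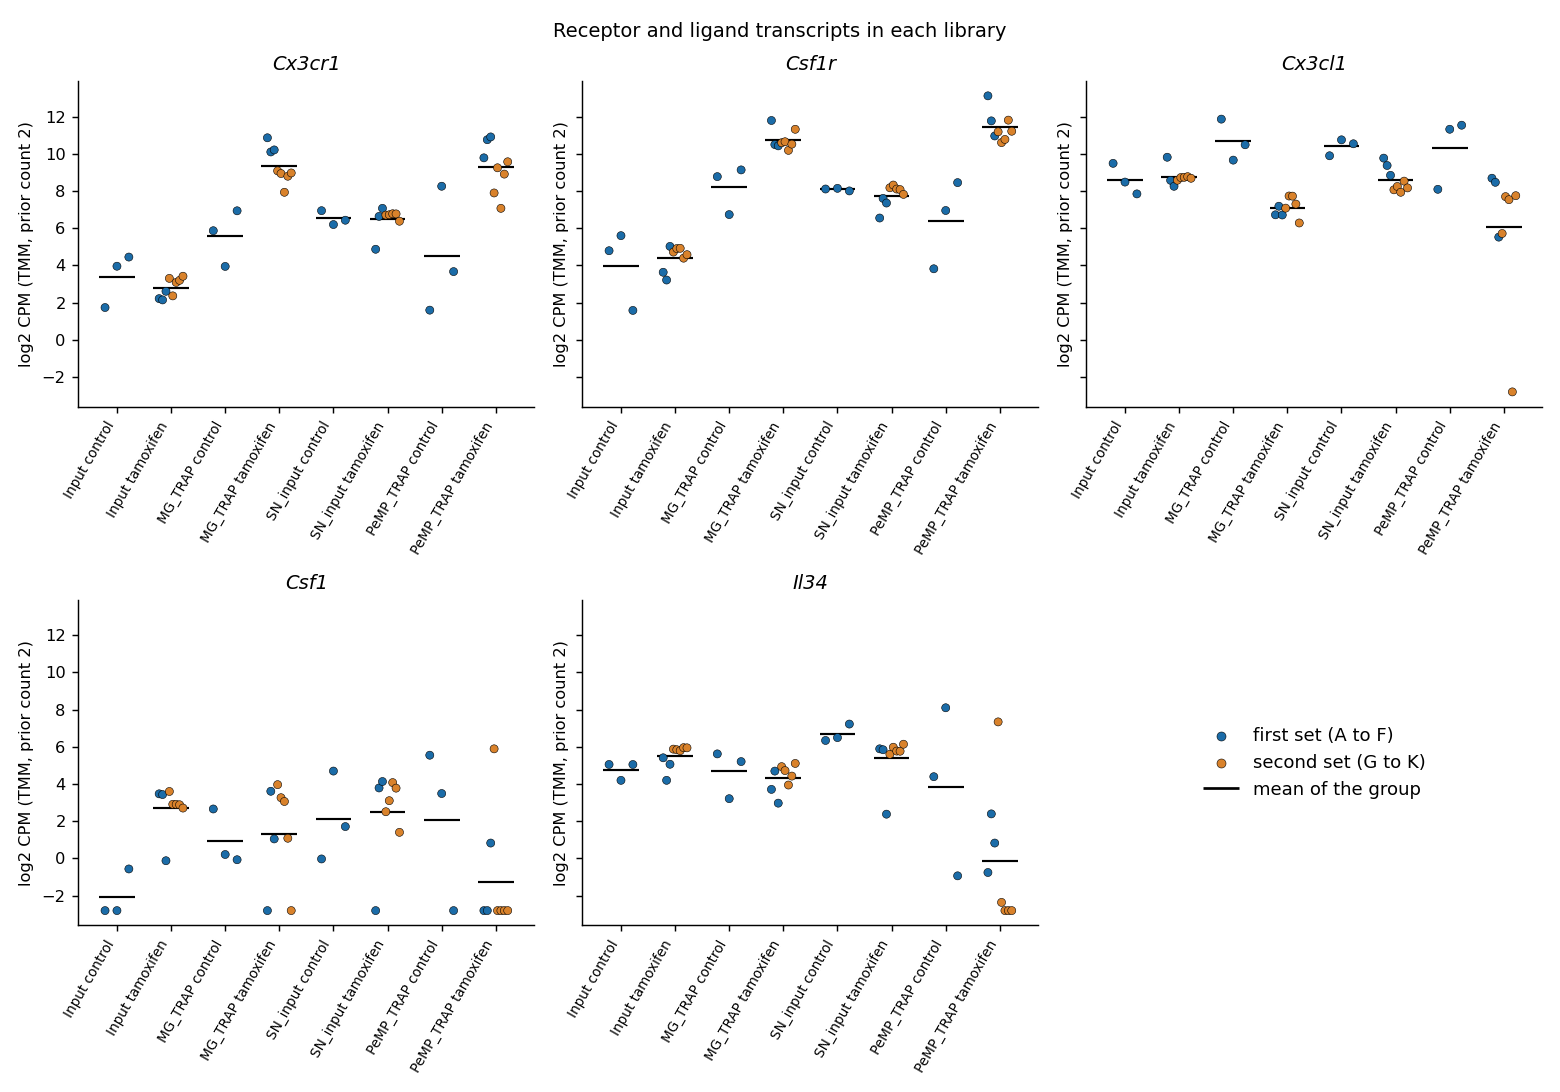
Each point is the TMM log2 CPM (prior count 2) of 1 gene in 1 library, by fraction and treatment, in blue for replicates A to F and in orange for G to K, and each bar is the group mean. Both receptors are highest in the tamoxifen pulldowns and Cx3cl1 is lowest there, and among the tamoxifen PeMP_TRAP libraries Csf1 and Il34 are highest in replicate G (5.89 and 7.34).

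Receptor transcripts were already higher in the synaptosome fraction before any pulldown. Cx3cr1 stood at 21.1, 83.8 and 99.2 CPM in tamoxifen SN_input (lowest, median and highest of 8), and Csf1r at 61.4, 222.2 and 285.5 CPM. For both genes every SN_input library lay above every Input library, and the share of all genes that did so was not computed. Against Input, Cx3cr1 rose by 3.75 (SE 0.48, adjusted p = 7.57e-07) and Csf1r by 3.36 (SE 0.37, adjusted p = 2.79e-08). These were 2 of 5 members, where 2.55% of genes were called. The 3 ligands had adjusted p-values of 0.982 to 0.988 in this comparison, with Cx3cl1 at a median of 265.2 CPM in SN_input (172.5 to 632.9) and Il34 at 45.3 CPM (1.90 to 64.2). Csf1 stood at a median of 6.06 CPM there (0 to 14.6). Neither receptor was called with limma voom (adjusted p = 0.0997 for Cx3cr1 and 0.622 for Csf1r) or in the first set alone (0.0778 and 0.297). Markers of other cells differed between these fractions too. Astrocyte markers summed to 1564 to 3818 CPM in Input and to 3704 to 9904 CPM in SN_input, with 3 of 8 called higher. Of oligodendrocyte markers 3 of 6 were called higher (medians of 6441 and 29076 CPM), where 2.08% of all genes were. Neuronal markers went from 8200 to 12897 CPM to 2894 to 5607 CPM, with none of 10 called by edgeR. Their part in the receptor levels was not tested. RLE and total-count scaling moved the median of all genes by -0.70 and -1.05, and both receptors were called higher under each.

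The pulldown from synaptosomes raised both receptors further. Cx3cr1 stood at 105.2, 504.4 and 1588 CPM in PeMP_TRAP (lowest, median and highest of 8) and Csf1r at 1303, 1953 and 3735 CPM. Neither range overlapped SN_input by CPM, where the share of all genes without overlap was not computed. With TMM scaling the lowest Cx3cr1 pulldown and the highest SN_input library were level (both 7.07 log2 CPM). Against SN_input, Cx3cr1 rose by 2.91 (SE 0.47, adjusted p = 4.44e-05) and Csf1r by 3.82 (SE 0.38, adjusted p = 6.47e-09), 2 of 5 members, where 32.3% of genes were called, 6.15% higher and 26.1% lower. With limma voom the adjusted p of Csf1r was 0.0676. Some of these values rest on few molecule equivalents. In the second set the Cx3cr1 reads of those PeMP_TRAP libraries amounted to 2.19 to 14.2 molecule equivalents, and those of Csf1r to 25.8 to 62.1. In SN_input of the first set the Cx3cr1 reads amounted to 1.55 in D, 44.7 in E and 9.26 in F.

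The gain over the starting material was smaller in synaptosomes than in whole tissue, by -3.65 for Cx3cr1 (SE 0.62, adjusted p = 0.000601) and by -2.53 for Csf1r (SE 0.49, adjusted p = 0.00132) in a test of the difference itself. Of all genes, 11.3% were called in this test, 10.9% in the lower direction. In the first set alone neither was called (adjusted p = 0.571 and 0.831), and limma voom did not call Csf1r (0.433). The higher receptor level of SN_input enters this difference directly. Between the 2 pulldowns, the receptors were not called: Cx3cr1 differed by 0.10 (SE 0.43, adjusted p = 0.913) and Csf1r by 0.83 (SE 0.34, adjusted p = 0.0706) in PeMP_TRAP against MG_TRAP. Over all 8 replicates no member's CPM ranges were separate between the pulldowns, and the share of all genes that were was not computed. In the first set alone Il34 was separate, at 0.159 to 2.81 CPM in PeMP_TRAP against 6.42 to 24.5 CPM in MG_TRAP. By the test, which is another measure, 25.2% of genes were called, 22% of all genes in the lower direction. The direction for Cx3cr1 turned with the scaling, at -0.42 with RLE scaling and -0.53 with total counts, where the median of all genes moved by -0.53 and -0.73. Csf1r was at -0.00622 with total counts. In order of level, both receptors were thus lowest in Input and next in SN_input, with MG_TRAP and PeMP_TRAP above and not told apart.

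The ligands of CSF1R had few reads in tamoxifen PeMP_TRAP, except in replicate G. Csf1 had 1 read in replicate F, 1797 reads (50.7 CPM) in G and none in D, E, H, I, J and K. Il34 had 2, 7 and 1 reads in D, E and F, 4914 reads (139 CPM) in G, 1 in H and none in I, J and K. By molecule equivalents the reads in G come to 1.59 for Csf1 and 4.33 for Il34. Against SN_input, the fitted changes were -0.65 for Csf1 (SE 1.51, adjusted p = 0.784) and -1.66 for Il34 (SE 1.18, adjusted p = 0.300). edgeR called 26.1% of all genes lower here. limma voom called both ligands lower (adjusted p = 0.00865 and 5.22e-05), among 8078 genes that it called in either direction. With the replicate letter as a block Il34 was called lower too, as given under the processing. Without the PeMP_TRAP library of replicate G both were called lower, Csf1 at -8.16 (adjusted p = 0.00165) and Il34 at -6.28 (adjusted p = 0.000622). Against MG_TRAP they went from 0.10 (SE 1.47, adjusted p = 0.982) to -7.54 (adjusted p = 0.00439) for Csf1 and from -0.38 (SE 1.16, adjusted p = 0.873) to -5.04 (adjusted p = 0.00422) for Il34. With replicate G kept, 22% of all genes were called lower against MG_TRAP. A fitted change against libraries at 0 depends on the prior count, so these sizes are no bounds. Glial markers were lower in PeMP_TRAP than in SN_input too, with 6 of 6 oligodendrocyte and 4 of 8 astrocyte markers called, where 26.1% of all genes were. The part of glial RNA in the ligand reads was not tested. At 1 equivalent per 1134 reads or more, a transcript as rare as Il34 in MG_TRAP was not detectable with certainty in the PeMP_TRAP libraries of the second set.

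Cx3cl1 had reads in the synaptosomal pulldown of tamoxifen mice, except in 1 library. It stood at 37.8 to 205.2 CPM in 7 PeMP_TRAP libraries, with no read in replicate J. These reads amounted to 34, 43.8 and 5.09 molecule equivalents in D, E and F and to 1.4, 3.44, 3.03 and 4.02 in G, H, I and K. In J, a count of 0 allows up to 0.147 CPM by counting error, but 1 molecule equivalent of that library is 1248 reads. Against SN_input the fitted change was -1.21 (SE 0.62, adjusted p = 0.133), and it was called lower with RLE scaling (0.0404), DESeq2 (0.0343) and limma voom (0.00751). Between the pulldowns Cx3cl1 had an adjusted p of 0.846. Neuronal markers summed to 2894 to 5607 CPM in SN_input and to 557.3 to 1928 CPM in PeMP_TRAP. Of the 10 markers 7 were called lower, where 26.1% of all genes were, and Gad1 and Gad2 were at 0 in all 5 PeMP_TRAP libraries of the second set. Whether the remaining Cx3cl1 reads come with this neuronal RNA was not tested.

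**Figure D2:**
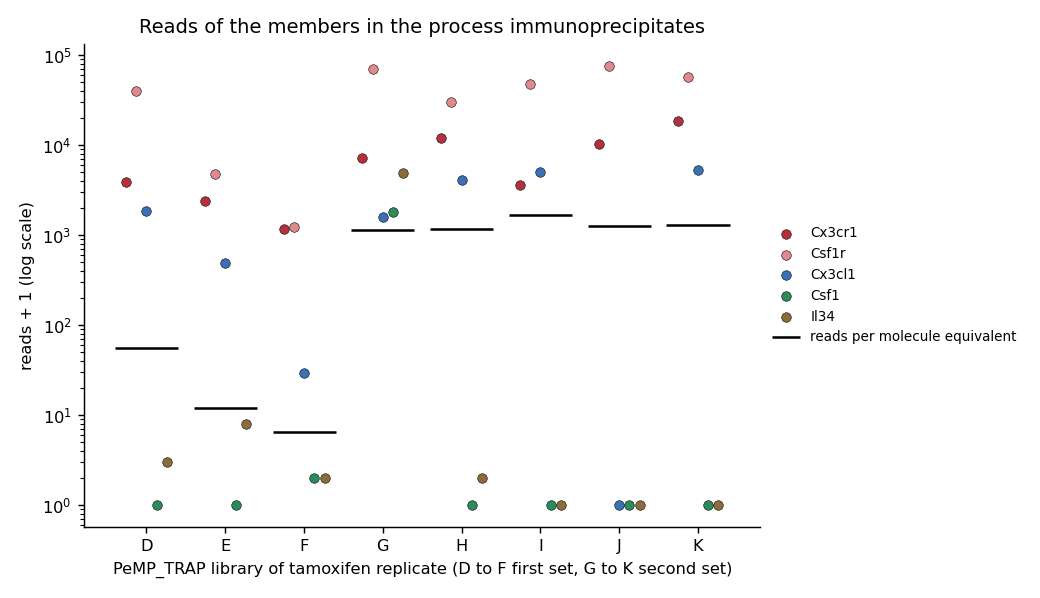
Reads plus 1 (log scale) of each member in the 8 PeMP_TRAP tamoxifen libraries, with a black bar at the reads that stand for 1 molecule equivalent in that library. Receptor reads lie above the bar in all 8 libraries, while Csf1 and Il34 lie above it only in replicate G.

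**Figure D3:**
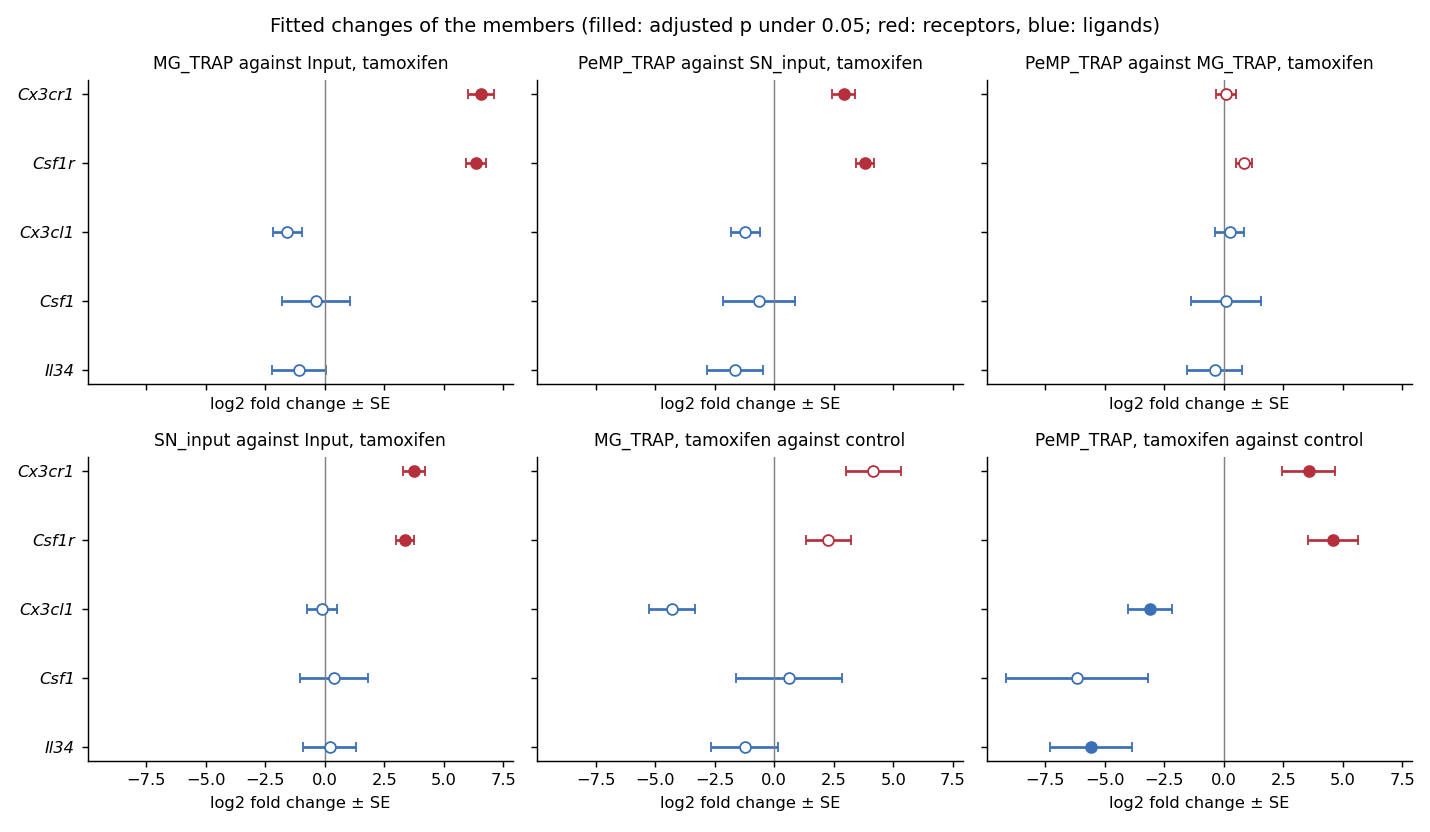
Points are fitted log2 fold changes with their standard errors for the 5 members in 6 comparisons, in red for receptors and blue for ligands, and filled where the adjusted p is under 0.05. The receptors are called in the 4 comparisons in which the points are filled red, and the ligands are called only in PeMP_TRAP of tamoxifen against control mice.

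A ratio of receptor to ligand within a library needs no scaling between libraries. Ratios were taken on the log2 scale from counts per kb of merged exon, with 0.5 added to each count, and compared by a two-sided exact permutation test within the sets, 14 tests being adjusted together. Cx3cr1 to Cx3cl1 had a mean of -6.19 ± 0.80 in Input, -2.32 ± 1.22 in SN_input, 2.08 ± 1.29 in MG_TRAP and 3.32 ± 4.66 in PeMP_TRAP (SD, n = 8 each). The ligand thus led in both starting materials in every library, and the receptor led in all 8 MG_TRAP libraries. The differences were 8.27 for MG_TRAP against Input, 5.65 for PeMP_TRAP against SN_input and 3.87 for SN_input against Input, each with an exact permutation adjusted p of 0.000926 and no overlap. Their p before adjustment was 0.000397, the smallest that 5040 regroupings allow. PeMP_TRAP against MG_TRAP differed by 1.25 (exact permutation adjusted p = 0.777), and replicate J, with no Cx3cl1 read, stood at 14.1.

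The ratio of Csf1r to the sum of Csf1 and Il34 rose in the same comparisons, but unlike the fractalkine ratio it was also called between the pulldowns. Its mean was -2.76 ± 0.56 in Input, 0.55 ± 0.89 in SN_input, 4.74 ± 0.93 in MG_TRAP and 10.9 ± 4.63 in PeMP_TRAP (SD, n = 8 each). It rose by 7.49 in MG_TRAP against Input, by 10.3 in PeMP_TRAP against SN_input and by 3.30 in SN_input against Input (exact permutation adjusted p = 0.000926 each). The only overlap was between PeMP_TRAP replicate G, at 2.10, and SN_input replicate F, at 2.22. Against MG_TRAP it was higher by 6.12 in PeMP_TRAP (exact permutation adjusted p = 0.0190), a call that was lost without replicate J (5.47, adjusted p = 0.0543) and in the second set alone (7.52, adjusted p = 0.0833). Where ligand counts are 0 the added 0.5 sets the size of this ratio, so the PeMP_TRAP mean is not a measured level.

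The proportion of the receptors to each other was not called different between fractions. Csf1r exceeded Cx3cr1 per kb in Input by a mean of 1.29 ± 0.58 on the log2 scale, in SN_input by 0.90 ± 0.45, in MG_TRAP by 1.03 ± 0.80 and in PeMP_TRAP by 1.80 ± 1.32 (SD, n = 8 each). No comparison was called, with exact permutation adjusted p-values from 0.134 to 0.543. Within MG_TRAP the ratio lay between -0.14 and 0.57 in replicates D to F and between 1.15 and 1.99 in G to K, so the sets did not overlap. That split was seen in the values and was not tested. Per kb and in tamoxifen Input, Csf1 was below Il34 in all 8 libraries, with a mean log2 ratio of -4.24 ± 1.27. Csf1 to Il34 differed by -0.87 in MG_TRAP (exact permutation adjusted p = 0.693) and by -0.21 in SN_input (exact permutation adjusted p = 0.877), each against Input. In PeMP_TRAP 1 library had the 10 counts needed, so no test was made.

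**Figure D4:**
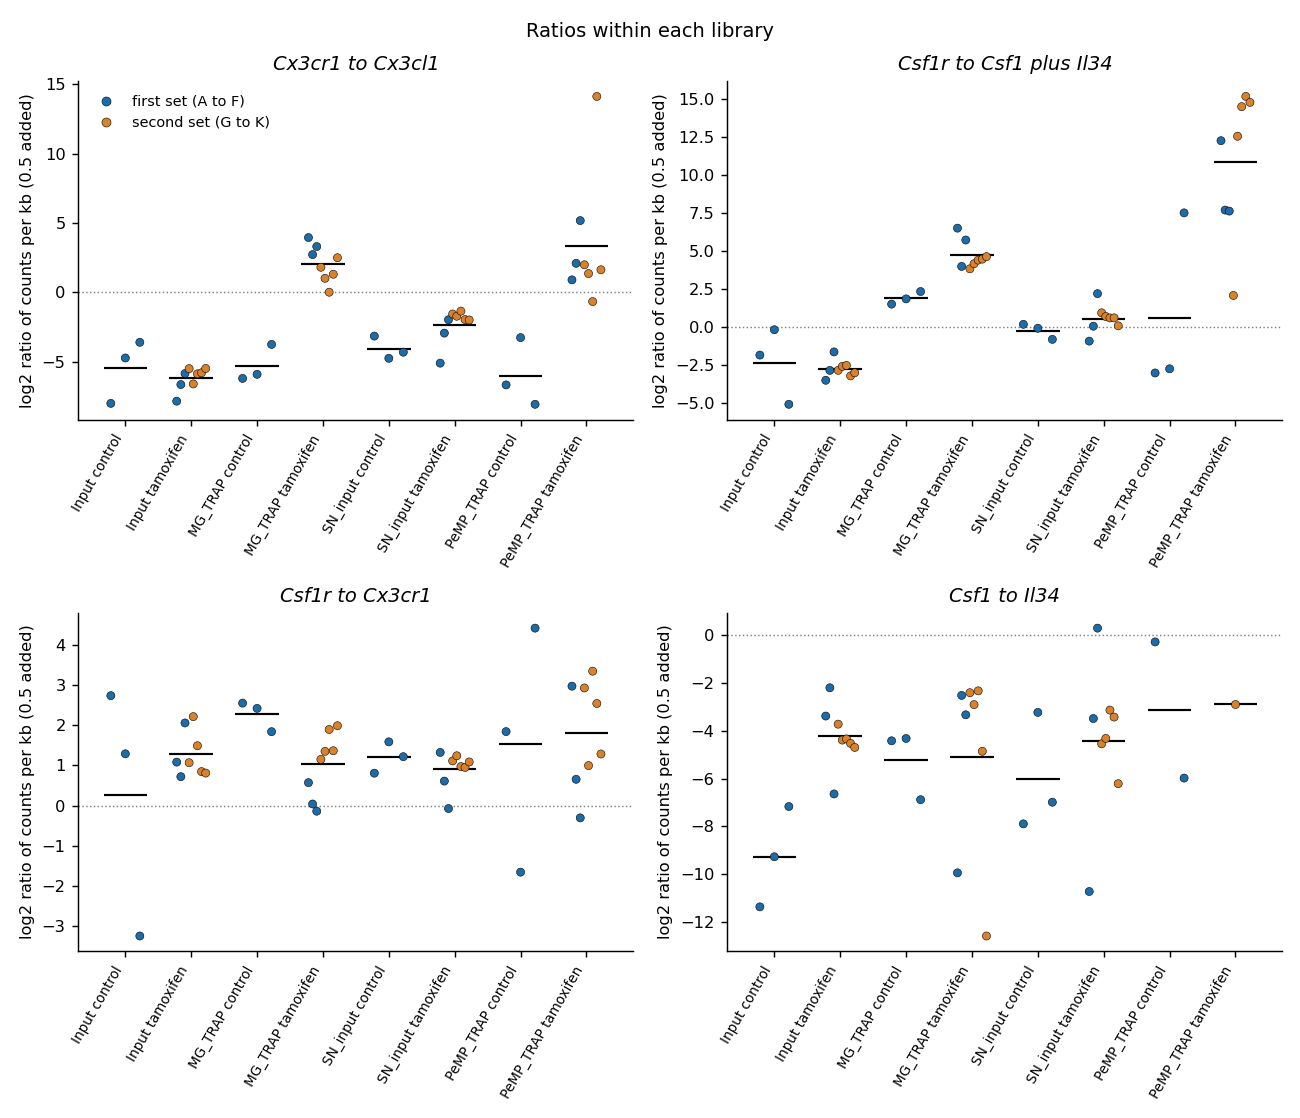
Points are log2 ratios of counts per kb (0.5 added to each count) within each library, by fraction and treatment, in blue for replicates A to F and in orange for G to K, with bars at the group means. Receptor-to-ligand ratios lie below 0 in Input and above 0 in the tamoxifen MG_TRAP libraries, and the tamoxifen means of Csf1r to Cx3cr1 lie between 0.90 and 1.80.

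Control pulldowns show what the method recovers without tamoxifen. In control replicates A, B and C, Cx3cr1 stood at 4.73, 17.7 and 27.6 CPM in Input and at 79.2, 19.8 and 190 CPM in MG_TRAP. Csf1r stood at 40.9, 55.7 and 3.62 CPM in Input and at 596, 138 and 874 CPM in MG_TRAP. Csf1r thus lay higher in all 3 control pulldowns than in any control Input, as did the ligand Csf1 (1.26 to 8.42 CPM against 0 to 0.679 CPM), while Cx3cr1 overlapped. Of all genes tested, 12.3% did not overlap between these groups, 6.25% being higher. Microglial markers summed to 90.8 to 216.1 CPM in control Input and to 1173 to 3376 CPM in control MG_TRAP, and their part was not tested. The fitted changes were 3.93 for Csf1r (SE 1.01, adjusted p = 0.286) and 2.42 for Cx3cr1 (SE 1.07, adjusted p = 0.589). DESeq2 called Csf1r (adjusted p = 0.00326). edgeR called 0.0135% of 14771 genes here, and 1101 had an unadjusted p under 0.05.

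The ligand Cx3cl1 was abundant in the control pulldowns. Cx3cl1 stood at 1066, 411.1 and 292.7 CPM in control Input and at 5080, 1048 and 2231 CPM in control MG_TRAP. The fitted change was 2.3 (SE 0.88, adjusted p = 0.589), and by CPM the groups overlapped by replicates A of Input and B of MG_TRAP, but with TMM scaling they did not (9.66 to 11.86 log2 CPM against 7.84 to 9.49). In control PeMP_TRAP Cx3cl1 stood at 324.2, 1630 and 1924 CPM, against 876.1, 1212 and 1620 CPM in control SN_input. In those PeMP_TRAP libraries Cx3cr1 was at 3.42, 195 and 8.12 CPM and Csf1r at 16.6, 78.8 and 226 CPM. Cx3cr1 in A and C and Csf1r in A and B lay below every control SN_input library. No gene was called between these fractions in controls by edgeR, 2577 had an unadjusted p under 0.05, and DESeq2 called 1275. The log2 ratio of Cx3cr1 to Cx3cl1 was -5.28 ± 1.34 in control MG_TRAP and -6.00 ± 2.47 in control PeMP_TRAP (SD, n = 3 each), and every one of these 6 libraries lay below every tamoxifen library of the same fraction.

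In SN_input of controls, Cx3cr1 stood at 113, 51.5 and 93.6 CPM and Csf1r at 254, 199 and 279 CPM. Against control Input the fitted changes were 2.7 for Cx3cr1 (SE 1.08, adjusted p = 0.698) and 3.23 for Csf1r (SE 0.98, adjusted p = 0.698), and DESeq2 called Csf1r (adjusted p = 0.0368). All 3 control SN_input libraries lay above the 3 Input libraries for both receptors and also for the ligands Csf1 (0.772 to 18.2 CPM against 0 to 0.679 CPM) and Il34 (63.5 to 163 CPM against 21 to 49.2 CPM). Of all genes tested, 5.96% were higher without overlap. With TMM scaling Cx3cl1 was separate as well (9.89 to 10.75 log2 CPM against 7.84 to 9.49). edgeR called no gene, 1010 had an unadjusted p under 0.05, and DESeq2 called 134.

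Tamoxifen against control was fitted on the first set, 3 libraries against 3. In PeMP_TRAP 11.1% of genes were called, 5.56% in each direction, and 4 of 5 members were among them. Csf1r rose by 4.58 (SE 1.04, adjusted p = 0.00804), from 16.6 to 226 CPM in controls to 1646 to 3139 CPM in D to F. Cx3cr1 rose by 3.56 (SE 1.12, adjusted p = 0.0358), from 3.42 to 195 CPM to 311 to 1588 CPM. Cx3cl1 fell by 3.09 (SE 0.91, adjusted p = 0.0275), from 324.2 to 1924 CPM to 37.8 to 194.2 CPM. For these 3 genes the groups did not overlap by CPM, which held for 16% of all genes tested. With TMM scaling Cx3cl1 overlapped, at 5.52 to 8.69 log2 CPM in D to F against 8.09 to 11.54 in controls. Il34 had 51, 198 and 1 reads in controls and 2, 7 and 1 in D to F, and its fitted change was -5.57 (SE 1.72, adjusted p = 0.0323), with control C level with the tamoxifen libraries. Csf1 had 114, 8 and 0 reads in controls against 0, 0 and 1, and was not called (adjusted p = 0.148), except with DESeq2 (adjusted p = 0.0200).

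These calls rest on few libraries. With only the 2 compared groups in the fit, the 3 members tested (Csf1r, Cx3cr1 and Cx3cl1) were not called, and Csf1r had an adjusted p of 0.118. In control PeMP_TRAP the Cx3cr1 reads amounted to 0.30, 16.6 and 0.49 molecule equivalents and those of Csf1r to 1.44, 6.71 and 13.7. The Csf1r call held when any 1 replicate was left out (adjusted p from 0.0104 to 0.0221). Cx3cr1 was lost without E, F, A or C (adjusted p up to 0.108), Cx3cl1 without D, F, B or C (up to 0.130) and Il34 without D, E, F or B (up to 0.393). The calls of Cx3cl1 and Il34 were also lost with no filter (adjusted p = 0.0577 and 0.0502) and with limma voom (0.186 and 0.422). Astrocyte markers summed to 3499 to 4719 CPM in control PeMP_TRAP and to 526.5 to 3087 CPM in D to F, and neuronal markers to 3002 to 7939 CPM against 557.3 to 1928 CPM. Oligodendrocyte markers summed to 4455 to 16097 CPM against 702.1 to 3066 CPM, and endothelial markers to 331.6 to 2143 CPM against 11.7 to 474.9 CPM. Microglial markers went from 561.6 to 4190 CPM in controls to 7592 to 19525 CPM in D to F. The part of this shift in the members' changes was not tested.

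In MG_TRAP the same 3 genes were separate between tamoxifen and control libraries, but edgeR called no gene of 14771, where 2351 had an unadjusted p under 0.05 and limma voom called 1197. Of all genes tested, 28.3% did not overlap between these groups. Cx3cr1 was higher by 4.16 (SE 1.15, adjusted p = 0.146), and Csf1r by 2.27 (SE 0.94, adjusted p = 0.251). Cx3cl1, the ligand, differed by -4.29 (SE 0.96, adjusted p = 0.0664) and was called without replicate B (adjusted p = 0.0478). limma voom called all 3 (adjusted p = 0.000822 for Cx3cr1, 0.00614 for Csf1r and 0.00233 for Cx3cl1), and DESeq2 called Cx3cr1 (0.00139) and Cx3cl1 (0.000145). Neuronal markers summed to 8099 to 10895 CPM in control MG_TRAP and to 1172 to 1805 CPM in D to F. Astrocyte markers went from 1737 to 6765 CPM to 270.9 to 533.9 CPM, and oligodendrocyte markers from 2660 to 10317 CPM to 403.1 to 1784 CPM. Microglial markers went from 1173 to 3376 CPM to 8389 to 19076 CPM, and border macrophage markers from 0 to 17.2 CPM to 129.1 to 243.6 CPM. The part of these shifts in the members' changes was not tested. In Input and SN_input no gene was called by edgeR (452 and 495 with an unadjusted p under 0.05, 48 and 64 called by DESeq2), and every member had an adjusted p of 1. Csf1 had 0, 0 and 3 reads in control Input and 308, 55 and 3 in D to F, and by CPM these groups were separate, as were those of 6.51% of all genes. In SN_input 4 of 5 members were lower by CPM without overlap in D to F than in controls, where 19% of all genes were: Cx3cr1, Csf1r, Cx3cl1 (172.5 to 632.9 CPM against 876.1 to 1620 CPM) and Il34 (1.90 to 43.2 CPM against 63.5 to 163 CPM). Neuronal markers summed to 5631 to 9014 CPM in control SN_input and to 2894 to 4561 CPM in D to F, and their part was not tested. With TMM scaling Cx3cr1 overlapped there (4.87 to 7.07 log2 CPM against 6.20 to 6.94), and total-count scaling moved the median of all genes by -0.96.

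The difference between pulldown and starting material was larger in tamoxifen mice for Csf1r in synaptosomes. The enrichment of PeMP_TRAP over SN_input was larger in tamoxifen than in control mice by 5.41 (SE 1.35, adjusted p = 0.0428), in a test that called 1.24% of genes, 0.914% in this direction and 0.325% in the other. That call was lost without D, E, F, A or B (adjusted p up to 0.187) and with only the compared groups in the fit. For Cx3cr1 the difference was 3.63 (SE 1.48, adjusted p = 0.160), called without replicate B (0.0177). In whole tissue no gene was called by edgeR, with 1357 at an unadjusted p under 0.05 and 203 called by DESeq2. Cx3cr1 differed there by 5.53 (adjusted p = 0.357), Csf1r by 2.78 (adjusted p = 0.526) and Cx3cl1 by -4.64 (adjusted p = 0.357).

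The sets gave unlike enrichments of the receptors in synaptosomes. In SN_input, Csf1r stood at 61.4 to 78.8 CPM in D to F and at 205.4 to 285.5 CPM in G to K, with no overlap, while control libraries of the first set stood at 199 to 279 CPM. Cx3cr1 stood at 21.1 to 50.4 CPM in D to F, at 75.4 to 99.2 CPM in G to K and at 51.5 to 113 CPM in controls. PeMP_TRAP of the sets overlapped for both genes by CPM. On the TMM log2 CPM scale that the test uses, Csf1r kept these relations, but Cx3cr1 overlapped in SN_input (4.87 to 7.07 in D to F, 6.37 to 6.78 in G to K) and was separate in PeMP_TRAP (9.78 to 10.91 and 7.07 to 9.57). The change from SN_input to PeMP_TRAP was smaller in the second set by -1.92 for Csf1r (SE 0.64, adjusted p = 0.0367) and by -1.99 for Cx3cr1 (SE 0.75, adjusted p = 0.0695), where 15.1% of 17961 genes were called, 14.9% lower and 0.189% higher. The Csf1r call was lost with RLE scaling, with no filter and without D, G, H or I (adjusted p up to 0.461). For MG_TRAP against Input, edgeR called no gene between the sets (1070 with an unadjusted p under 0.05, 4 called with no filter), and Cx3cr1 differed by -2.42 (adjusted p = 0.540). In tamoxifen SN_input oligodendrocyte markers summed to 3262 to 17527 CPM in D to F and to 21798 to 60629 CPM in G to K. Microglial markers there overlapped, at 243.8 to 1111 CPM (median 316.4) and 774.0 to 1005 CPM (median 974.4). What differed between the sets, these markers and molecule equivalents included, was not tested for its part.

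The authors' deposited table, made from the first set, gives log2 fold changes of 7.41 for Cx3cr1 (FDR 8.31e-12) and 6.63 for Csf1r (FDR 5.81e-11) in MG_TRAP against Input. In the authors' deposited table PeMP_TRAP against SN_input has 3.93 for Cx3cr1 (FDR 0.000301), 4.43 for Csf1r (FDR 1.83e-05) and -4.93 for Il34 (FDR 0.0144). For SN_input against Input the authors' deposited table has 6.56 for Cx3cr1 (FDR 0.00583) and 5.99 for Csf1r (FDR 0.00906). The headers of that table name tamoxifen for both pulldowns but no treatment for Input or SN_input. The deposited changes may thus rest on other samples than the tamoxifen fits above, and their sizes are not like for like. In MG_TRAP against Input the authors' deposited table has 1.89 for Csf1 (FDR 0.524), which was not called. The fit of tamoxifen libraries had -0.37 for Csf1 there, also not called. The authors' deposited table gives Cx3cl1 -2.14 (FDR 0.104) in MG_TRAP against Input and -1.95 (FDR 0.0932) in PeMP_TRAP against SN_input.

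Several genes that act downstream of CSF1R rose in the same pulldowns. Of 15 listed genes of CSF1R signalling, 14 were tested (Fgr was not), and 7 rose and none fell in MG_TRAP against Input, where 4.67% of all genes rose and 2.15% fell. Their median change was 4.18, against -0.14 over all genes tested. Tyrobp, the adaptor, rose by 7.0 (SE 0.45, adjusted p = 2.75e-15), and the kinase Lyn rose by 5.86 (SE 0.79, adjusted p = 8.5e-07). Inpp5d, a phosphatase that limits phosphoinositide signals, rose by 5.39 (SE 0.72, adjusted p = 6.12e-07). Syk and the phospholipase Plcg2 were called as well, with 4.44 (adjusted p = 0.00576) and 5.39 (adjusted p = 0.000628). Fyn, a kinase with broad expression in brain, was not called (-0.46, adjusted p = 0.852).

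In PeMP_TRAP against SN_input 7 of these 14 genes rose and none fell, with a median of 2.68 against -0.75 over all genes, of which 6.15% rose and 26.1% fell. Tyrobp rose by 3.64 (SE 0.39, adjusted p = 1.76e-08) and Lyn by 3.44 (SE 0.72, adjusted p = 0.0005). Inpp5d did not pass (1.39, SE 0.63, adjusted p = 0.0886). Between the pulldowns none of the 14 was called by edgeR, with a median of 0.13 against -0.57. In SN_input against Input 2 were called, where 2.55% of all genes were, Tyrobp at 4.04 (adjusted p = 1.28e-09) and Inpp5d at 3.99 (adjusted p = 0.00017). In PeMP_TRAP, 6 of 14 rose in tamoxifen against control libraries, where 5.56% of all genes did, Tyrobp by 4.62 (SE 1.02, adjusted p = 0.00729).

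The fractalkine list held the sheddases of the ligand and the transducers of the receptor. Of 12 genes, 3 rose and none fell in MG_TRAP against Input, with a median of 1.16, and 3 rose and 1 fell in PeMP_TRAP against SN_input, with a median of 1.00. Of all genes 4.67% rose and 2.15% fell in the former (median -0.14), and 6.15% rose and 26.1% fell in the latter (median -0.75). Ctss, a secreted protease that can cleave fractalkine, rose by 6.91 (SE 0.39, adjusted p = 2.01e-16) and by 3.45 (SE 0.34, adjusted p = 4.11e-09) in these comparisons. Gnai2, an inhibitory G protein subunit of immune cells, rose by 2.85 (SE 0.36, adjusted p = 2.32e-07) and 2.06 (SE 0.36, adjusted p = 8.29e-05). The metalloproteases that shed fractalkine from neurons did not pass: Adam10 had 1.2 (adjusted p = 0.387) and 1.07 (adjusted p = 0.225), and Adam17 had 2.53 (adjusted p = 0.0895) and 0.93 (adjusted p = 0.439). Gnai2 was also the gene of this list called higher in PeMP_TRAP than in MG_TRAP, by 1.25 (adjusted p = 0.00653), and 1 of the 12 was called lower there.

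Transcription factors of the Csf1r locus and the macrophage lineage rose with the receptors. Of 6, 4 rose and none fell in each of the 2 pulldown comparisons, with medians of 4.32 and 3.01, where 4.67% and 6.15% of all genes rose and the medians were -0.14 and -0.75. Spi1, which encodes PU.1, rose by 6.70 (SE 0.81, adjusted p = 7.98e-08) in MG_TRAP and 3.17 (SE 0.69, adjusted p = 0.00069) in PeMP_TRAP. Irf8, its partner, rose by 5.61 (SE 0.61, adjusted p = 6.08e-09) and 2.85 (SE 0.54, adjusted p = 0.000185), and Cebpa by 4.44 (SE 0.91, adjusted p = 0.000946) and 4.13 (SE 0.90, adjusted p = 0.000751). The gain of the pulldown was smaller in synaptosomes for Spi1 (-3.53, adjusted p = 0.0102) and Irf8 (-2.76, adjusted p = 0.0102), as it was for the receptors. It was also smaller for Tyrobp (-3.37, adjusted p = 0.000101) and Ctss (-3.45, adjusted p = 1.04e-05).

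Receptors related to CSF1R and the other proteins that bind IL-34 were mixed. Of 12 related receptors and ligands 10 were tested (Csf2 and Csf3 were not), and 2 rose and none fell in MG_TRAP against Input, where 4.67% of all genes rose, with a median of -0.16. In PeMP_TRAP against SN_input 2 rose and 4 fell, with a median of -2.12, where 6.15% of all genes rose, 26.1% fell and the median was -0.75. Csf3r, the G-CSF receptor, rose by 6.79 (SE 1.37, adjusted p = 0.000745) and 3.68 (SE 1.24, adjusted p = 0.0196), while Csf2ra, a subunit of the GM-CSF receptor, did not pass (2.16, adjusted p = 0.49, and 2.23, adjusted p = 0.209). Kitl, the ligand of the related receptor KIT, had -0.43 (adjusted p = 0.92) and 0.42 (adjusted p = 0.808). Pdgfra, which marks oligodendrocyte precursors, had -1.38 (adjusted p = 0.661) and -2.67 (adjusted p = 0.0934). Ptprz1, a glial phosphatase that binds IL-34, fell by 2.34 in PeMP_TRAP against SN_input (SE 0.80, adjusted p = 0.022) and had -1.23 in MG_TRAP against Input (adjusted p = 0.496). Of the 2 listed IL-34 binders no other call was made.

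**Figure D5:**
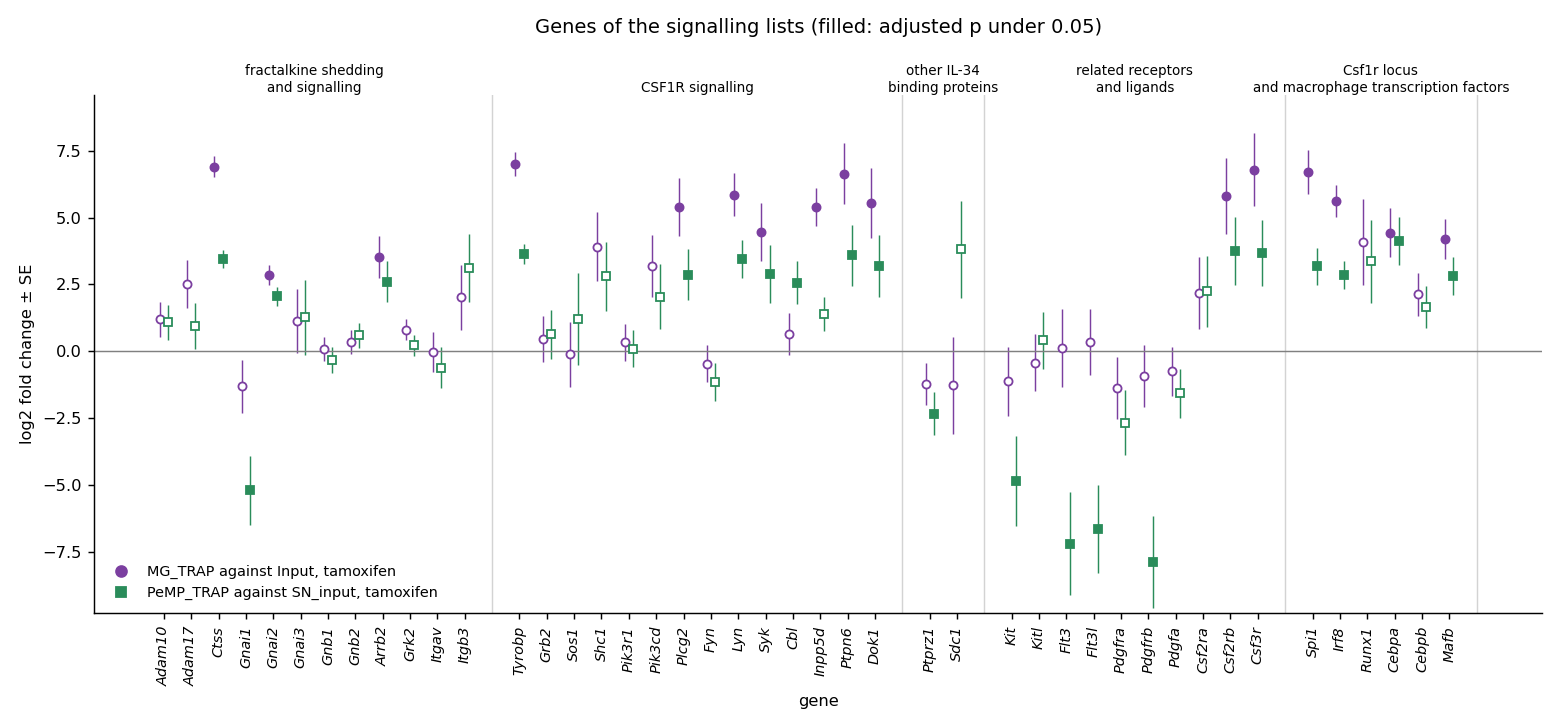
Log2 fold changes with standard errors of the listed genes in MG_TRAP against Input (circles) and PeMP_TRAP against SN_input (squares) of tamoxifen libraries, filled where the adjusted p is under 0.05. Of the CSF1R signalling genes 7 of 14 are filled above 0 in each comparison, and the filled points below 0 belong to PeMP_TRAP.

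Border macrophages and monocytes also use Cx3cr1 or Csf1r. Markers of border macrophages (7 genes, among them Mrc1, Pf4 and Cbr2) summed to 83.3 to 243.6 CPM in tamoxifen MG_TRAP, to 1.91 to 21.4 CPM in Input and to 0 to 325.5 CPM in PeMP_TRAP, where Cd163 and F13a1 were at 0 in all 8 libraries. In MG_TRAP against Input 3 of the 7 were called higher, where 4.67% of all genes were. In PeMP_TRAP 2 of the 7 were called lower against SN_input and 2 against MG_TRAP, where 26.1% and 22% of all genes were. Monocyte markers (4 genes) summed to 0.0753 to 47.5 CPM in MG_TRAP. The part of these cells in the receptor reads was not tested.

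Across all 44 libraries, the genes closest to each member were taken from 6335 genes with an average log2 CPM of at least 3. Csf1r was closest to Trem2 (Pearson r = 0.954), C1qa (0.953) and Laptm5 (0.945), all genes of microglia. Cx3cr1 was closest to Siglech (0.915), Rgs10 (0.90) and Csf1r itself (0.899). Cx3cl1 was closest to App (0.923), Nptn (0.889) and Vamp2 (0.886), and Il34 to Fcho1 (0.908), Caln1 (0.90) and Med16 (0.895). Csf1 had no close neighbour, with Caskin1 first at 0.679. Between members, Csf1 and Il34 had r = 0.614, Cx3cr1 and Cx3cl1 had r = -0.385 and Csf1r and Il34 had r = -0.468. These libraries share fractions, sets and depth, so the values describe likeness of pattern only.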

How the data were processed

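RNA was measured in 44 libraries, 3 control and 8 tamoxifen replicates of 4 fractions each. The authors deposited HTSeq counts, whole reads per Ensembl gene, made with FastQC 0.11.7, Trimmomatic 0.38, Bowtie2 2.3.5, STAR 2.7.0d and HTSeq 0.9.1, per the submitters' processing notes, after SMART-Seq v4 amplification per the labels' protocols. The genome build, annotation and strand setting are not given in the sources used here. The authors also deposited a table of log2 values, log2 fold changes, a score and p-values with FDR from edgeR for the first set, per the file headers, which was used only where it is named.

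All counts were restricted to 50714 identifiers shared by both sets. Identifiers left out held 0.0232% to 0.795% of assigned reads, and summary lines that name no gene were left out. Tests used the quasi-likelihood test of edgeR 4.0.16 in R 4.3.3, with TMM scaling and filterByExpr (minimum count 10). P-values were adjusted by Benjamini-Hochberg over all genes tested and called under 0.05. The 32 tamoxifen libraries were fitted together, with set as covariate (15710 genes passed the filter). Comparisons with controls used the first set, 24 libraries (14771 genes). CPM are counts over the library total. The mean log2 CPM uses a prior count of 2. Ratios within libraries were computed in Python 3.11.15 with SciPy 1.17.1.

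No pair of libraries of the same group held identical values (64 pairs compared). Alternatives were RLE and total-count scaling, no filter, DESeq2 1.42.0, limma 3.58.1, only the compared groups, each set alone, each replicate left out and a replicate block. The scripts were tested on simulated data. The members, gene lists and markers were chosen with earlier results of these data known. Genes given with fitted changes are the 5 members and 18 genes of the lists, and 3 genes per member are given for likeness of pattern. Other genes are named only as markers, overlapping genes or genes not tested. Of the genes first listed, 2 are not reported here.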

Additional observations from a re-analysis of the deposited data

Results flagged for a closer look

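Single libraries stood far from the other 7 of their group in 9 of 35 groups of values compared. The rule is set to flag about 1 in 20 among independent normal values. These groups mix the sets, hold counts of 0 and share values with the ratios, so that rate is no baseline for them. On the TMM log2 CPM scale, Csf1 was low in Input of replicate F (-0.12, the next library at 2.71) and in SN_input of D (-2.80, next 1.4), and high in PeMP_TRAP of G (5.89, next 0.83). Cx3cl1 was high in Input of D (9.81, next 8.77) and low in PeMP_TRAP of J (-2.80, next 5.52). Cx3cr1 was low in SN_input of D (4.87, next 6.37) and Il34 low in SN_input of F (2.38, next 5.6). The log2 ratio of Cx3cr1 to Cx3cl1 was high in PeMP_TRAP of J (14.1, next 5.17) and low in SN_input of D (-5.10, next -2.93). Those of Csf1 in PeMP_TRAP of G and of Cx3cl1 in PeMP_TRAP of J belong to libraries in which 1134 and 1248 reads stand for 1 molecule equivalent. In SN_input 1 equivalent is 98.9 reads in D and 25.7 in F, where Cx3cr1 in D comes to 1.55 equivalents and Il34 in F to 0.35.

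Some effects differed between groups by a test of the difference itself in edgeR's quasi-likelihood test. The gain of the pulldown over its starting material was smaller in synaptosomes than in whole tissue for Cx3cr1 (-3.65, adjusted p = 0.000601) and Csf1r (-2.53, adjusted p = 0.00132). It was larger in tamoxifen than in control synaptosomes for Csf1r (5.41, adjusted p = 0.0428), and smaller in the second set than in the first for Csf1r (-1.92, adjusted p = 0.0367).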

How the results depend on the processing

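Of 1205 recomputed fold changes of the members, 1024 kept direction and side of the threshold, 40 lost a call, 39 gained one and 102 changed sign, of which 98 were called in neither fit. The cause of each change was not tested unless stated.

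The number of members called moved as follows. In MG_TRAP against Input (2 of 5) limma voom called 1 and the fit of the compared groups 4. In PeMP_TRAP against SN_input (2) limma voom called 4, and leaving out 1 replicate gave 2 to 4, with 4 without G. In PeMP_TRAP against MG_TRAP (0) limma voom called 1 and leaving out 1 replicate gave 0 to 2. In SN_input against Input (2) limma voom and the first set alone called 0. For the smaller gain in synaptosomes (2) the first set alone gave 0 and leaving out 1 replicate 2 to 4. In controls DESeq2 called 1 for MG_TRAP against Input (0) and 1 for SN_input against Input (0). In MG_TRAP, tamoxifen against control (0), total counts gave 1, no filter 1, DESeq2 2, limma voom 3 and leaving out 1 replicate 0 to 1. In PeMP_TRAP, tamoxifen against control (4), DESeq2 gave 5, no filter 2, limma voom 2, the compared groups 0 (of 3 fitted) and leaving out 1 replicate 1 to 3. For the tamoxifen minus control enrichment in whole tissue (0) DESeq2 called 2 and limma voom 1, and in synaptosomes (1) the compared groups gave 0 and leaving out 1 replicate 0 to 1. The set difference of PeMP_TRAP against SN_input (1) gave 0 with RLE scaling, 2 with total counts, 0 with no filter and 0 to 2 without 1 replicate, and that of PeMP_TRAP against MG_TRAP (0) gave 0 to 1. The set differences were recomputed under alternatives chosen after seeing the data, as was every fit without the PeMP_TRAP library of G.

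Of the 102 changes of sign, 26 were between the pulldowns, 14 in SN_input against Input and 13 in control PeMP_TRAP against SN_input. Between the pulldowns Cx3cl1 ran from -1.67 to 1.22 over its alternatives. There Cx3cr1 was at -0.42 with RLE scaling, -0.53 with total counts, -0.0285 with no filter, -0.42 with DESeq2, -0.44 with limma voom, -0.21 in the second set alone and -0.21 to 0.29 without 1 replicate. Csf1r was at -0.00622 with total counts, and Il34 at 0.25 in the second set. Csf1 was at -0.15 with RLE scaling, -0.60 with total counts, -0.00356 with no filter, -0.16 with DESeq2, -2.95 with limma voom, -0.47 with the compared groups, -3.67 in the first set, and -7.54 (without G) to 0.57 without 1 replicate. In PeMP_TRAP against SN_input Csf1 was at 0.32 in the second set alone. Of the ratios, Csf1r to Cx3cr1 in MG_TRAP against Input was 0.26 in the second set and -0.46 to 0.0189 without 1 replicate. Csf1 to Il34 was 0.00754 in the second set for SN_input against Input and -1.23 to 0.81 without 1 replicate, and -1.47 to 0.13 for MG_TRAP against Input. For PeMP_TRAP against MG_TRAP, Cx3cr1 to Cx3cl1 was -0.40 (without J) to 1.86, and Csf1r to its ligands was 7.52 in the second set and 5.47 to 7.25 without 1 replicate.

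The replicate block, with the letter in place of set, put Csf1 in PeMP_TRAP against MG_TRAP at -3.90 (adjusted p = 0.205) and called Il34 lower in PeMP_TRAP against SN_input (-4.96, adjusted p = 0.0276). It changed no other call of a member. Libraries of the same letter hardly deviated together (66 pairs, median r = 0.0215, 7 over 0.1), and the labels do not say that a letter is 1 mouse, so the letters were not taken to pair libraries. As a hint from the data, not the design, 30 of 44 libraries correlated best with their own letter. Tamoxifen and control mice share no letter, so no block was possible between them.

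Over all genes, calls in MG_TRAP against Input (1071) ranged from 329 in the first set alone to 3576 with the compared groups, in PeMP_TRAP against SN_input (5074) from 372 in the first set to 8078 with limma voom, in PeMP_TRAP against MG_TRAP (3952) from 0 to 6939 and in SN_input against Input (400) from 6 to 2779. They ranged from 0 to 4600 for the gain between fractions (1770), from 23 to 4109 for PeMP_TRAP of tamoxifen against control (1643) and from 3 to 1826 for its enrichment (183). Set differences (2710 and 2743) ranged from 1496 to 3171 and from 1433 to 3270 without 1 replicate. Scaling moved the split of higher and lower calls in MG_TRAP against Input from 733 and 338 to 594 and 528 (RLE), and in SN_input against Input from 327 and 73 to 134 and 109 (RLE) or 93 and 230 (total counts). It moved the median of all genes in MG_TRAP against Input by -0.52 (RLE) and -0.32 (total counts). The PeMP_TRAP libraries of the second set held 20352794 to 35427238 reads, and 1 molecule equivalent there is 1134 reads or more.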
